A study of Bos taurus with 22 samples.

Results

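The comparison described here asked what casein did in the jejunal mucosa of steers that also received glucagon-like peptide 2 (GLP-2). It set 6 steers given casein and GLP-2 (casein + GLP-2) against 5 steers given GLP-2 with water in place of casein (GLP-2). These 11 animals were chosen by their treatment labels from 22 sequenced steers. The other 11 received vehicle injections, 6 of them with casein (casein) and 5 with water (control), and no animal was shared between the GLP-2 and the vehicle steers. All were growing Holstein steers fed alfalfa hay cubes, and every animal, controls included, had raw corn starch infused into the abomasum at 3.94 g per kg of body weight daily for 7 d. Casein was sodium caseinate infused at the same site at 1.30 g per kg daily, GLP-2 was the bovine peptide injected under the skin at 100 μg per kg daily, and vehicle was bovine serum albumin in saline. Steers were stratified by body weight into 6 blocks, which give the replicate numbers used here. The GLP-2 steers came from blocks 1, 3, 4, 5 and 6, and a further GLP-2 steer of the study was not analysed here.

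The abomasum empties into the small intestine, so that casein infused there reaches the gut without ruminal degradation. In the intestine, peptidases of the brush border cut protein into small peptides and amino acids, and transporters such as SLC15A1 (a proton-coupled peptide carrier) take them into enterocytes. GLP-2 is made with GLP-1 from the proglucagon gene GCG in enteroendocrine L cells and is known for promoting mucosal growth. Its receptor is found on cells other than enterocytes, including enteric neurons and subepithelial fibroblasts.

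The mucosa had been scraped from the jejunum with a glass slide, so that each library mixed epithelium with immune cells, vessels, connective tissue and muscle. A lower value of a cell type's genes can mean fewer of those cells or less RNA in each, and these cannot be told apart in bulk tissue. Epithelial genes were abundant in all 11 libraries. For example, the lowest value of EPCAM was 607 CPM (a count scaled by its library's total) and the lowest of SI, sucrase-isomaltase, was 525 CPM. Red blood cell genes summed to less than 1 CPM in every steer. Library totals were 8809666 to 18569748 counts for casein + GLP-2 and 10447886 to 28447810 for GLP-2 (exact permutation test, 2-sided, p = 0.234, with 0.00433 as the smallest p that this design allows). No pair of libraries was identical. Correlations of log2 CPM were 0.907 to 0.965 between steers of the same treatment and 0.877 to 0.959 between steers of different treatments. Fold changes below are casein + GLP-2 over GLP-2 on the log2 scale, and a positive value means higher with casein.

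Of 14100 genes tested, 1 gene (0.00709%) passed the threshold of 0.05 on the Benjamini-Hochberg adjusted p of the quasi-likelihood test in edgeR, and none fell between 0.05 and 0.1. Without adjustment, 452 genes (3.21%) were higher and 559 (3.96%) lower with casein at p of at most 0.05, which together is 1011 genes, or 532 when the block was in the model. The fold changes were centered, with a median of 0.01 over all tested genes and 50.8% of genes higher with casein. The normalization by itself aims at such a center. In 31 genes (0.22%) all casein + GLP-2 steers lay above all GLP-2 steers, and in 29 genes (0.206%) all lay below. The 11 steers can be divided into groups of these sizes in 462 ways. For a gene without tied values, 1 of these ways gives full separation in a given direction. Both percentages are close to 1 in 462, the share that arbitrary labels give on average. Non-overlap of the groups is therefore given below as a description only. A DESeq2 Wald test on the same steers called 11 of 14074 genes (0.0782%), 7 higher and 4 lower, and the single gene from edgeR was among them. With all 22 steers in the model, 398 genes were at that unadjusted p and 0 were called. The fit of the 11 steers was chosen with an earlier, lower count of this kind known, so the 1011 genes and the single call are not independent of that choice. No other gene named below passed the edgeR threshold in this fit, and some of them barely differed between treatments. Unadjusted p-values are therefore given as a description. The shares of 3.21% higher and 3.96% lower are the background for each count of list members at such a p.

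The gene that rose was ENSBTAG00000054260, described in the files as cytochrome P450 CYP3A24 and located at chr25:36710741-36759920 on the minus strand of ARS-UCD1.2. CYP3A enzymes are monooxygenases of enterocytes and hepatocytes that oxidize steroids, bile acids and many xenobiotics. The 6 casein + GLP-2 steers, in block order, had 122, 70.7, 58.2, 44.2, 38.1 and 31.3 CPM. All 5 GLP-2 steers had 0 counts. Against a floor of 3 counts per library, which was at most 0.281 CPM in the GLP-2 steers, the mean of 60.7 CPM was at least 216-fold higher (adjusted p = 0.000775 in edgeR, 0.0183 with the block in the model). The groups did not overlap, and the gene kept its call when any 1 of the 11 steers was left out, with adjusted p from 0.000251 to 0.00511.

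Vehicle steers of both infusions included animals at 0 and animals far above it. Among control steers the values were 64.4, 0.0882, 0, 97.0 and 0 CPM, and among casein steers 13.6, 0, 0, 0, 25.7 and 0 CPM. It was above the floor in 2 of 5 control steers, 2 of 6 casein steers, 6 of 6 casein + GLP-2 steers and 0 of 5 GLP-2 steers, or 10 of 22 in all. When all 22 steers shared a single estimate of the spread, the adjusted p was 0.995, and it was 4.58e-32 in the DESeq2 test of the 11 steers. The interaction of casein with GLP-2 had an unadjusted p of 0.000434 in edgeR and was called by DESeq2, which called 1 other gene, ENSBTAG00000039559 with an immunoglobulin V-set domain, named here after its result was seen.

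The other CYP3A genes of this chromosomal cluster, looked up after the values of the first were seen, were expressed in every GLP-2 steer. The gene ENSBTAG00000053645 (CYP3A5) ranged from 4.09 to 80.5 CPM with a median of 21.0 in casein + GLP-2 steers. In the GLP-2 steers it was 2.25, 6.76, 3.63, 16.4 and 14.4 CPM, a fold change of 1.73 ± 0.68 (SE; unadjusted p = 0.0253), and the groups overlapped. A second locus with the symbol CYP3A5, ENSBTAG00000049666, differed by 1.20 ± 0.56 (unadjusted p = 0.0540 in edgeR), and ENSBTAG00000052665 (CYP3A4) by 0.81 ± 0.64 (unadjusted p = 0.232). All 4 genes of the cluster were thus higher in casein + GLP-2 steers, whereas 0 of the 3 that could be tested in vehicle steers were higher with casein. Reads from near-identical CYP3A copies can be assigned to the wrong copy, and the values of single members are uncertain for that reason.

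**Figure D1:**
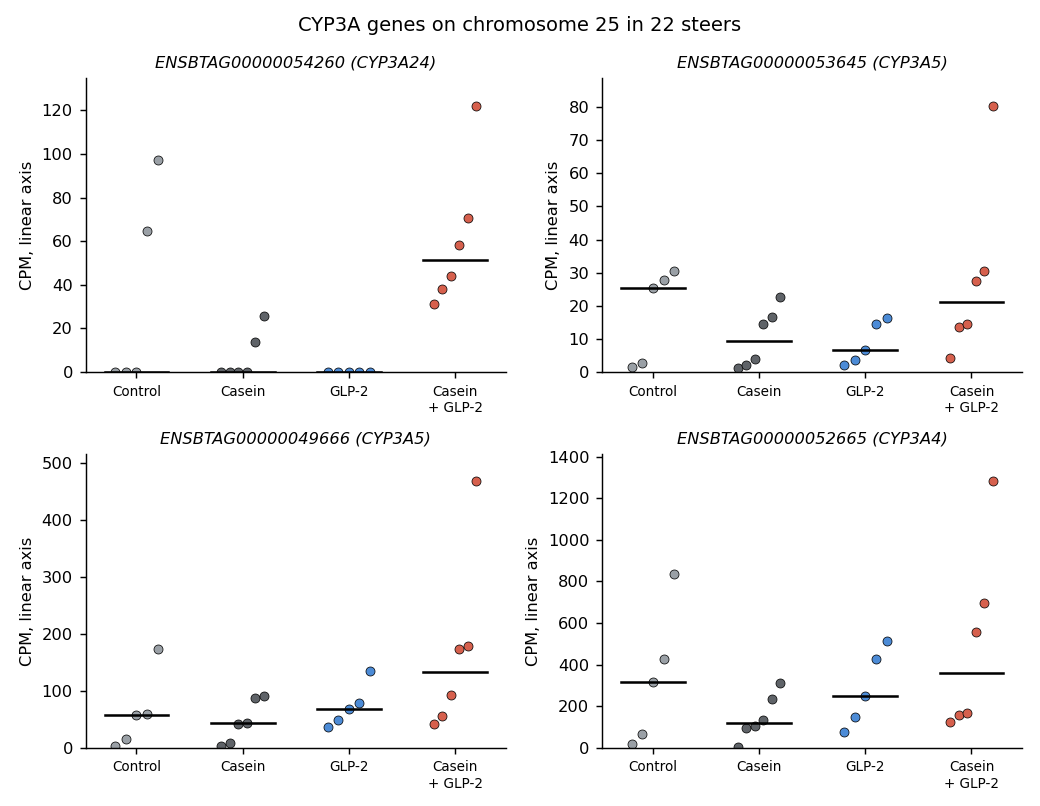
Expression of the 4 CYP3A genes of chromosome 25 by treatment, in CPM on linear axes; each point is a steer (5 control, 6 casein, 5 GLP-2, 6 casein + GLP-2) and the bar is the median. ENSBTAG00000054260 is at 0 in all 5 GLP-2 steers and between 31.3 and 122 CPM in the 6 casein + GLP-2 steers, while vehicle steers of both infusions hold values at 0 and far above it.

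Of the 12 higher genes with the smallest p, 4 are known targets of interferon gamma (GBP2, ENSBTAG00000001143, IDO1 and CD274), and none of the 4 passed the threshold in edgeR. Interferon gamma, released by T cells and natural killer cells, induces guanylate-binding proteins (GTPases of cell-autonomous defence), IDO1 (a tryptophan-degrading enzyme), CD274 (the checkpoint ligand PD-L1) and the machinery of antigen presentation. GBP2, at chr3:54409369-54433538 on the plus strand, had the smallest p after the CYP3A gene. Casein + GLP-2 steers had 86.8, 58.7, 45.3, 80.5, 64.2 and 30.9 CPM of GBP2. GLP-2 steers had 27.9, 22.5, 25.1, 17.7 and 19.0 CPM of GBP2, all below the lowest casein + GLP-2 steer. Its fold change was 1.44 ± 0.25 (adjusted p = 0.417 in edgeR and 2.27e-04 in DESeq2), and without casein + GLP-2 replicate 6 the adjusted p in edgeR was 0.0317.

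The gene ENSBTAG00000001143, described as a GBP1, ranged from 198 to 347 CPM with a median of 253 in casein + GLP-2 steers and was 126, 123, 143, 94.1 and 142 CPM in GLP-2 steers. Values of the 2 treatments did not overlap (fold change 1.03 ± 0.19, adjusted p = 0.432 in edgeR and 2.27e-04 in DESeq2). Among 11 guanylate-binding protein loci on chromosome 3, looked up as a family after these values were seen, 9 were expressed enough to test. All 9 were higher with casein, from 0.37 to 1.44 with a median of 0.81. An unadjusted p of at most 0.05 was seen for 7, against 3.21% higher at such a p over all tested genes. GBP2 and ENSBTAG00000001143, whose values led to the look-up, are among the 7, so that count is no further evidence. In vehicle steers 2 of the same 9 were higher with casein. These loci are close copies, and reads may be shared among them.

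IDO1 ranged from 113 to 277 CPM with a median of 172 in casein + GLP-2 steers, against 108, 79.2, 97.8, 71.3 and 86.7 CPM with GLP-2. The groups did not overlap (fold change 1.04 ± 0.24, unadjusted p = 0.000828, DESeq2 adjusted p = 0.0448). CD274 had a median of 9.27 CPM (4.62 to 11.3) against 5.25, 3.38, 4.22, 3.37 and 4.18 CPM, a fold change of 1.07 ± 0.25 (unadjusted p = 0.000915, DESeq2 adjusted p = 0.0411). The lowest casein + GLP-2 steer lay below the highest GLP-2 steer for this gene. IFNG, the cytokine itself, was low in all steers, at 2.53 to 5.74 CPM with a median of 3.83 in casein + GLP-2 and 1.35, 1.51, 1.79, 1.78 and 2.71 CPM in GLP-2 (1.17 ± 0.31, unadjusted p = 0.00256).

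Of 26 tested genes in the interferon gamma and antigen processing list, 19 were higher and 7 lower with casein, with a median of 0.35 against 0.01 for all genes. With unadjusted p of at most 0.05, 8 members were higher and 0 lower. Leaving out single steers gave 5 to 11 such members, the fewest without GLP-2 replicate 4 or 5 and the most without casein + GLP-2 replicate 6. In vehicle steers the same list had a median of -0.06, and 10 of 26 members were higher with casein. Of 30 type I interferon stimulated genes, which share many targets with the gamma pathway, 28 were higher with a median of 0.37, and 3 had an unadjusted p of at most 0.05, all higher. MX2, a dynamin-like antiviral GTPase, led them with 14.7 to 42.3 CPM (median 25.3) against 11.2, 9.52, 13.1, 16.1 and 18.0 CPM (1.03 ± 0.26, unadjusted p = 0.00150). The next members were IFI44L at 0.59 ± 0.19 (unadjusted p = 0.00897) and DDX58, the RNA sensor RIG-I, at 0.62 ± 0.26 (unadjusted p = 0.0310). With single steers left out, 2 to 8 members of the type I list had such a p, the most without GLP-2 replicate 6. Its median was 0.18 without casein + GLP-2 replicate 1. In vehicle steers its median was -0.31.

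T cell genes were higher along with them. SLAMF6, a receptor of T and natural killer cells, ranged from 62.6 to 110 CPM with a median of 76.3 in casein + GLP-2 steers and was 44.7, 55.6, 51.4, 45.6 and 47.3 CPM in GLP-2 steers. No overlap was seen between the groups (0.71 ± 0.15, unadjusted p = 0.000532, DESeq2 adjusted p = 0.0368). ITGAE, the integrin chain that anchors intraepithelial lymphocytes to E-cadherin, had a median of 221 CPM (168 to 314) against 134, 197, 147, 115 and 141 CPM (0.65 ± 0.20, unadjusted p = 0.00722). KLRK1 (the activating receptor NKG2D) differed by 0.67 ± 0.22 (unadjusted p = 0.00999) and CD8A, of cytotoxic T cells, by 0.60 ± 0.22 (unadjusted p = 0.0187). CD4, of helper T cells, was the single member of the list that was lower, at -0.39.

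Of 15 T cell and intraepithelial lymphocyte markers, 14 were higher with a median of 0.44, and 5 had an unadjusted p of at most 0.05. That number was 2 without GLP-2 replicate 5 and 9 without casein + GLP-2 replicate 5. Their summed level was 1241 to 2332 CPM in casein + GLP-2 steers and 1085 to 1674 CPM in GLP-2 steers, so the groups overlapped. In the vehicle steers 0 of the 15 markers were higher with casein, with a median of -0.39. Adding the T cell score of each steer to the model, an alternative that was chosen with the data in view, gave a median of 0.27 for the interferon gamma list and 0.16 for the type I list. Adding the smooth muscle score instead gave 0.29 and 0.01. The part of T cell number in the interferon values was not tested beyond these fits.

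**Figure D2:**
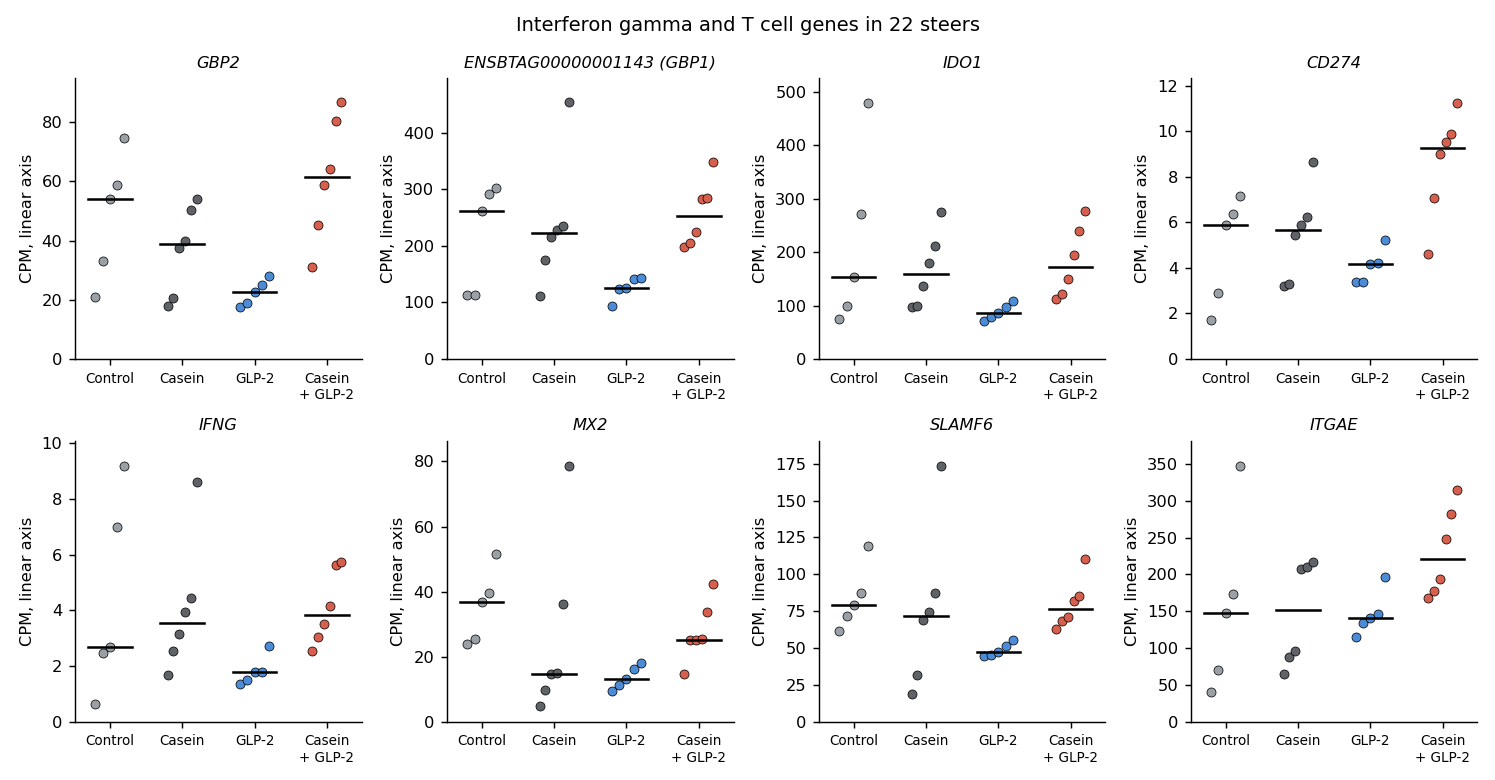
Interferon gamma response and T cell genes by treatment in CPM, linear axes; points are steers (5 control, 6 casein, 5 GLP-2, 6 casein + GLP-2) and bars are medians. GBP2, ENSBTAG00000001143, IDO1 and SLAMF6 separate the 6 casein + GLP-2 steers from the 5 GLP-2 steers, and the median of the GLP-2 steers is the lowest of the 4 treatments in every panel.

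The same genes were then read in all 4 treatments. GBP2 had a median of 53.9 CPM in control, 38.7 in casein, 22.5 in GLP-2 and 61.5 in casein + GLP-2 steers, and the control range of 20.8 to 74.5 CPM covered most values of the other treatments. For ENSBTAG00000001143 the medians were 262 CPM in control and 222 CPM in casein steers, close to the 253 CPM of casein + GLP-2. For both genes the GLP-2 steers had the lowest median and the narrowest range of the 4 treatments. GBP2 differed by -0.40 ± 0.36 with casein in vehicle steers. The unadjusted interaction p in edgeR was 0.000613 for GBP2, and the smallest adjusted p over all interaction tests was 0.956.

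Other genes near the top of the ranking had roles outside interferon signaling. SLC40A1, ferroportin, exports iron from enterocytes and macrophages. It had a median of 184 CPM (111 to 329) in casein + GLP-2 steers and 70.9, 83.7, 98.8, 136 and 81.7 CPM in GLP-2 steers, and 1 GLP-2 steer lay above the lowest casein + GLP-2 steer (1.08 ± 0.26, unadjusted p = 0.00101). In vehicle steers its fold change was 0.00 ± 0.28. The transcript env, an endogenous retroviral envelope gene, had few reads, with 0 to 5.80 CPM against 0 to 0.122 CPM. IFRD1, a transcriptional regulator, differed by 0.63 ± 0.17 and PPP1R13L, an inhibitor of p53, by 0.88 ± 0.24, both with non-overlapping groups. ENSBTAG00000054342, described as related to class I histocompatibility antigens, differed by 1.07 ± 0.28 (unadjusted p = 0.00215). The 12 genes with the smallest p on the higher side included 8 with non-overlapping groups, against 0.22% of all tested genes. Selection by small p in the same steers favors such separation, so that count is no further evidence. Of the 10 that could be tested in vehicle steers, 3 had the same sign there.

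On the lower side, the smallest p belonged to ENSBTAG00000047029, a locus with a ribosomal protein S12 domain at chr11:47179770-47180201. It was 25.6, 10.2, 9.76, 12.4, 19.7 and 8.36 CPM in casein + GLP-2 steers and 37.4, 46.9, 56.1, 30.8 and 39.5 CPM in GLP-2 steers. The groups did not overlap (-1.55 ± 0.29, adjusted p = 0.432 in edgeR and 0.00136 in DESeq2). The same locus was lower with casein in the independent vehicle steers, at -0.77 ± 0.27 (unadjusted p = 0.0149), with medians of 54.0 CPM in control and 26.1 CPM in casein steers. It is among the genes the study names as lower with casein over all steers, which include the present ones, so that its direction here is not independent evidence.

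Among the next genes were an aldo-keto reductase and a glutathione S-transferase, enzymes that reduce carbonyl compounds or conjugate reactive ones to glutathione. ENSBTAG00000039722, an aldo-keto reductase resembling AKR1C1, was 2.08, 1.75, 8.34, 1.62, 6.48 and 4.73 CPM in casein + GLP-2 steers and 18.1, 61.5, 13.1, 45.4 and 10.3 CPM in GLP-2 steers. Both groups were fully separated (-2.83 ± 0.57, unadjusted p = 0.000243, DESeq2 adjusted p = 0.000498, unadjusted p = 2.37e-05 with the block). ENSBTAG00000006546, a glutathione S-transferase described as GSTA2, was at most 3.28 CPM in casein + GLP-2 steers and 1.20, 156, 13.5, 4.49 and 34.7 CPM in GLP-2 steers, where replicate 3 was far above the rest (-4.38 ± 1.00, unadjusted p = 0.000735, DESeq2 adjusted p = 0.0198). Without that steer ENSBTAG00000006546 differed by -2.75, and with the block by -2.73. Its difference in vehicle steers had the other sign, 2.37 ± 1.15 (edgeR interaction, unadjusted p = 0.000368). GSTA1, the abundant member, had a median of 189 CPM (64.6 to 525) against 277, 818, 360, 602 and 712 CPM (-1.27 ± 0.48, unadjusted p = 0.0202).

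The families were then counted, after these values were known. All 5 tested genes of the GSTA cluster on chromosome 23 were lower in casein + GLP-2 steers, 3 with an unadjusted p of at most 0.05, while all 4 that could be tested in vehicle steers were higher with casein. In the AKR1C cluster on chromosome 13, 5 of 7 tested genes were lower, 2 with such a p, ENSBTAG00000039722 among them. Both family counts thus hold genes selected by small p in the same steers and are no further evidence. The gene of that cluster with the most reads, ENSBTAG00000039289, was on the higher side at 0.23 (unadjusted p = 0.502). In vehicle steers 1 of the same 7 was higher with casein. As in the CYP3A and guanylate-binding families, reads can be shared between copies.

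CA3, a carbonic anhydrase best known from muscle and fat, was low in all steers, at 0.286, 0, 0.475, 0.171, 0.990 and 0.550 CPM with casein + GLP-2 and 5.47, 2.60, 2.07, 4.30 and 1.47 CPM with GLP-2. The groups did not overlap (-2.91 ± 0.63, unadjusted p = 0.000447, DESeq2 adjusted p = 0.00336), and in vehicle steers the fold change was 1.56 ± 1.18. BCAM, an adhesion molecule that binds laminin, had a median of 14.7 CPM against 24.5 to 36.0 CPM (-0.82 ± 0.20, unadjusted p = 0.00135). POLR2I, a subunit of RNA polymerase II, differed by -0.70 ± 0.18, LYRM7, an assembly factor of mitochondrial complex III, by -1.01 ± 0.27, and RABL6, a small GTPase, by -0.52 ± 0.14. ENSBTAG00000025485, of the GSTA cluster, differed by -1.65 ± 0.42, ENSBTAG00000020550 by -1.05 ± 0.26 and the uncharacterized ENSBTAG00000031548 by -0.89 ± 0.23. Of the 12 lower genes with the smallest p, 9 had non-overlapping groups, against 0.206% of all tested genes, which selection by small p again favors. In vehicle steers 5 of the 12 had the same sign.

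Secreted antimicrobial proteins were among the largest lower values. Phospholipase A2 group IIA and the lectin REG3G are released into the lumen and act on bacterial membranes and cell walls. ENSBTAG00000013039, a phospholipase resembling PLA2G2A, was 10.3 to 87.5 CPM with a median of 27.7 in casein + GLP-2 steers. In GLP-2 steers it was 732, 15.6, 393, 127 and 254 CPM, and replicate 3 lay among the casein + GLP-2 values (-3.16 ± 0.79, unadjusted p = 0.00147 in edgeR). Its vehicle fold change was 2.23 ± 0.98 (edgeR interaction, unadjusted p = 0.000649). Both genes with the symbol PLA2G2A were lower too, ENSBTAG00000005759 by -2.89 ± 0.80 and ENSBTAG00000002700 by -1.71 ± 0.62. REG3G had a median of 124 CPM (42.1 to 404) against 1645, 60.4, 933, 236 and 426 CPM (-2.05 ± 0.75, unadjusted p = 0.0166, or 0.104 with the block). Of 13 tested genes of epithelial defence and IgA transport, 10 were lower, 3 of them with an unadjusted p of at most 0.05 and 1 with the block, and the median was -0.56. Without GLP-2 replicate 4 the list had 6 higher and 7 lower with a median of -0.11, without casein + GLP-2 replicate 4 the median was -1.07, and with the block it was -0.23. REG3G differed by -1.37 without GLP-2 replicate 1. In vehicle steers 7 of the 13 were higher with casein, with a median of 0.23. The defence oxidase DUOX2 differed by -1.32 ± 1.03 (unadjusted p = 0.222), where GLP-2 replicate 4 had 45.4 CPM and no other GLP-2 steer exceeded 5.71 CPM.

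**Figure D3:**
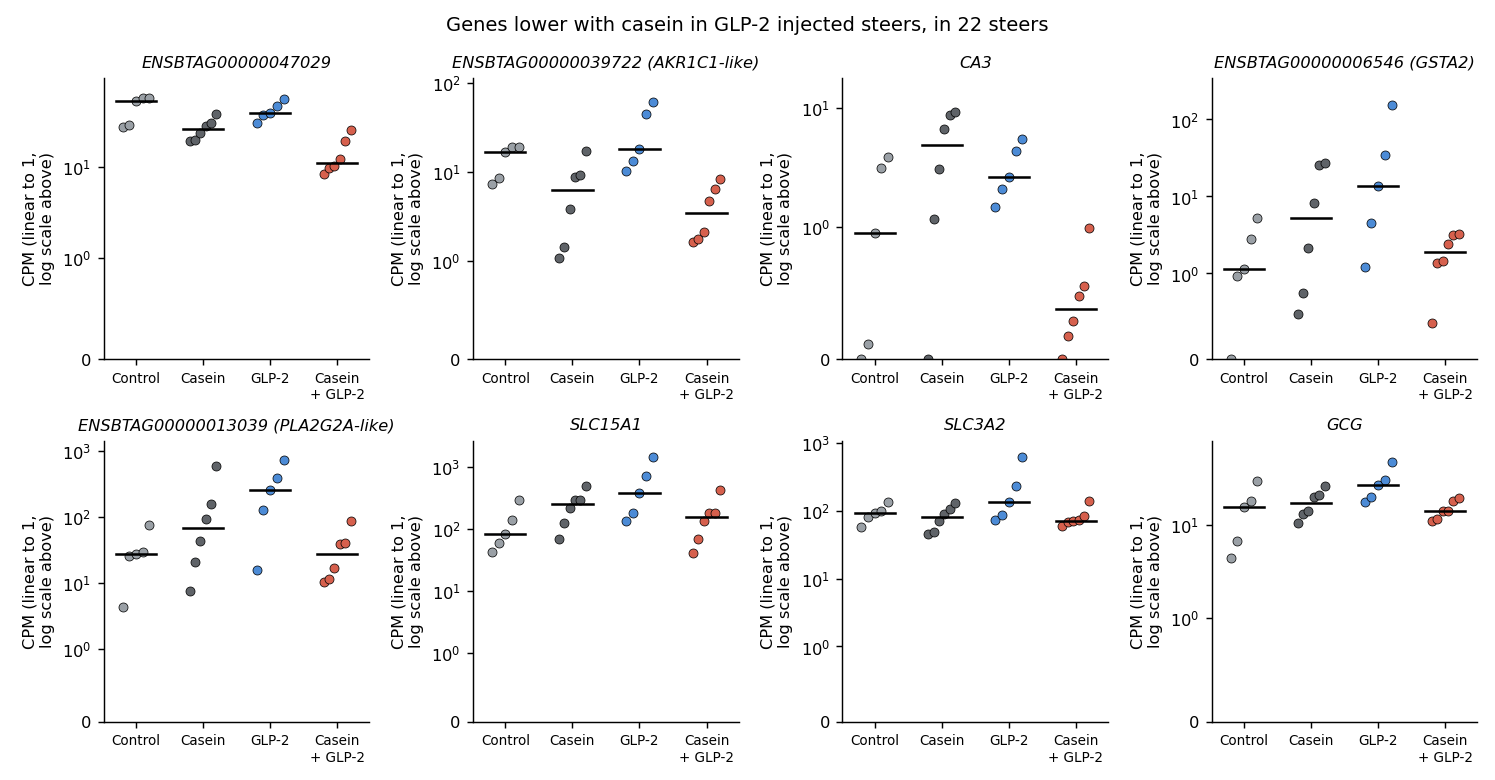
Genes lower with casein in GLP-2 injected steers, by treatment in CPM, on axes that are linear to 1 CPM and logarithmic above; points are steers (5 control, 6 casein, 5 GLP-2, 6 casein + GLP-2) and bars are medians. ENSBTAG00000047029, ENSBTAG00000039722 and CA3 separate the GLP-2 from the casein + GLP-2 steers, and the other panels overlap.

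Casein supplies peptides and amino acids, and the genes that digest and absorb them were examined next. Among 22 amino acid and peptide transporters, 9 were higher and 13 lower, with a median of -0.15. With unadjusted p of at most 0.05, 1 was higher and 6 lower, and 0 had such a p with the block in the model. SLC15A1 had a median of 160 CPM (41.3 to 439) in casein + GLP-2 steers and 393, 1484, 187, 135 and 729 CPM in GLP-2 steers (-1.73 ± 0.66, unadjusted p = 0.0205, or 0.106 with the block). SLC3A2, the heavy chain shared by several basolateral exchangers, had a median of 72.0 CPM (59.8 to 141) against 137, 629, 86.3, 74.4 and 238 CPM (-1.48 ± 0.49, unadjusted p = 0.00929, or 0.105 with the block). For both genes the highest value was GLP-2 replicate 3, without which SLC15A1 differed by -1.05 and SLC3A2 by -0.71. SLC7A6, a basolateral exchanger of cationic and neutral amino acids, was the transporter that was higher, at 13.2 to 29.9 CPM against 11.8 to 16.3 CPM (0.66 ± 0.21, unadjusted p = 0.00780).

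Among 18 brush border and cytosolic peptidases, 7 were higher and 11 lower with a median of -0.39, and 6 had an unadjusted p of at most 0.05, all lower (2 with the block). NAALADL1, an aminopeptidase-like ectoenzyme, had a median of 1.92 CPM (0.665 to 5.64) against 4.05, 111, 3.67, 2.43 and 7.69 CPM (-3.40 ± 0.99, unadjusted p = 0.00437, or 0.0689 with the block). Without GLP-2 replicate 3, NAALADL1 differed by -0.88. DPEP1, a dipeptidase, was 8.78 to 34.0 CPM against 26.1, 103, 19.4, 85.6 and 61.4 CPM (-1.46 ± 0.45, unadjusted p = 0.00663). MEP1A, the meprin protease, was 150 to 466 CPM against 385, 845, 251, 367 and 910 CPM (-1.20 ± 0.38, unadjusted p = 0.00722). ANPEP, aminopeptidase N, had a median of 484 CPM (263 to 2004) against 929, 7109, 1286, 275 and 2369 CPM (-1.44 ± 0.77, unadjusted p = 0.0838).

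GLP-2 replicate 3 was the highest steer in both lists. Its summed peptidase level was 22864 CPM, where the other 10 steers had 4729 to 12977 CPM, and its summed transporter level was 5931 CPM against 979 to 2965 CPM. Without that steer the peptidases had a median of -0.01 with 9 members higher and 9 lower, and 2 higher and 2 lower at an unadjusted p of at most 0.05. With the smooth muscle score in the model, all 18 peptidases were lower with a median of -0.88, 11 of them at an unadjusted p of at most 0.05, and the transporters had a median of -0.34. The transporters without GLP-2 replicate 3 had 1 higher and 1 lower at that p, and 9 in all without GLP-2 replicate 4 or 5. SLC15A1 was 83.5 CPM at the median of control and 260 CPM at the median of casein steers, a fold change of 1.01 ± 0.55 in the other direction (edgeR interaction, unadjusted p = 0.00704).

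The list of carbohydrases, hexose transporters and their transcription regulators lay on the higher side, in animals that all received starch. No carbohydrase had an unadjusted p of at most 0.05. SLC5A1, the sodium-glucose cotransporter SGLT1, was 621 to 2915 CPM with a median of 1708 in casein + GLP-2 steers and 518, 1053, 347, 575 and 995 CPM in GLP-2 steers (1.23 ± 0.45, unadjusted p = 0.0166, or 0.0815 with the block). SLC2A2, the basolateral glucose transporter GLUT2, was 92.0 to 296 CPM with a median of 219, against 74.3, 120, 48.4, 85.6 and 154 CPM (1.06 ± 0.36, unadjusted p = 0.0105). Values overlapped for both genes. SI, which cleaves isomaltose-type bonds of starch fragments, differed by 0.17 ± 0.31 (unadjusted p = 0.593). Of 12 tested members, 10 were higher with a median of 0.35, and 3 had an unadjusted p of at most 0.05. Beside both hexose transporters this was KAT2B, an acetyltransferase (0.49 ± 0.20, unadjusted p = 0.0283). With the smooth muscle score in the model 4 members were higher and 8 lower, and the median of the list was -0.12. With the T cell score it was -0.04.

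Villus enterocyte genes pointed the same way without any member at an unadjusted p of at most 0.05. Of 21 genes, 20 were higher with a median of 0.46, among them EPCAM (0.51 ± 0.26), the adhesion protein CDH1 (0.46 ± 0.25) and the brush border myosin MYO7B (0.69 ± 0.38). ALPI, intestinal alkaline phosphatase of the brush border, differed by 0.35 ± 0.65. Without casein + GLP-2 replicate 1 the list had 15 higher and 6 lower with a median of 0.16. In vehicle steers the median of this list was -0.21. With the smooth muscle score in the model it was -0.22 in the GLP-2 steers.

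Genes of the tissue beneath the epithelium were lower in casein + GLP-2 steers. All 10 smooth muscle genes were lower with a median of -1.66, and 8 of them had an unadjusted p of at most 0.05 (6 with the block). ACTA2, smooth muscle actin, was 9.83 to 82.1 CPM with a median of 19.4 in casein + GLP-2 steers and 198, 34.8, 63.6, 87.2 and 44.8 CPM in GLP-2 steers (-1.61 ± 0.58, unadjusted p = 0.0151). TAGLN, an actin-binding protein of smooth muscle, was 4.95 to 34.4 CPM against 92.2, 19.0, 33.5, 51.7 and 19.9 CPM (-1.65 ± 0.55, unadjusted p = 0.0108), and LMOD1, which nucleates actin filaments, differed by -2.09 ± 0.72 (unadjusted p = 0.0123). The summed level of the 10 genes was 64.5 to 287 CPM (median 86.6) with casein + GLP-2 and 128 to 861 CPM (median 213) with GLP-2. The highest was GLP-2 replicate 1, without which 1 member had an unadjusted p of at most 0.05 and the median was -1.04.

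All 11 stromal and collagen genes and all 7 endothelial genes were lower as well, with medians of -1.23 and -1.19. In each of these lists 2 members had an unadjusted p of at most 0.05, namely DPT (a matrix protein, -3.34 ± 1.03) and COL1A2 (a collagen chain, -1.40 ± 0.64) in the stroma list and VWF (-1.75 ± 0.74) and TEK (-1.41 ± 0.62) in the endothelial list. The next were COL6A1 (-1.35 ± 0.63) and KDR (-1.47 ± 0.81). With the block 6 stromal genes had such a p. Without casein + GLP-2 replicate 6, the numbers were 8 and 5, and without any 1 of casein + GLP-2 replicates 1 to 4 or GLP-2 replicates 1 and 5 they were 1 and 0. The summed stromal level was 69.2 to 964 CPM in casein + GLP-2 and 420 to 2154 CPM in GLP-2 steers. Without GLP-2 replicate 1 the stromal median was -0.63. Summed levels overlapped between the treatments. The part of muscle, stromal and endothelial genes in the epithelial and lymphocyte values was not tested beyond the fits with the smooth muscle score. In these fits the smooth muscle median was 0.00, which was fixed in advance because the score is built from the same genes. The stromal median in the same fits was 0.22 and the endothelial median was 0.46. The T cell median was 0.15 and the ribosomal median was -0.14.

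**Figure D4:**
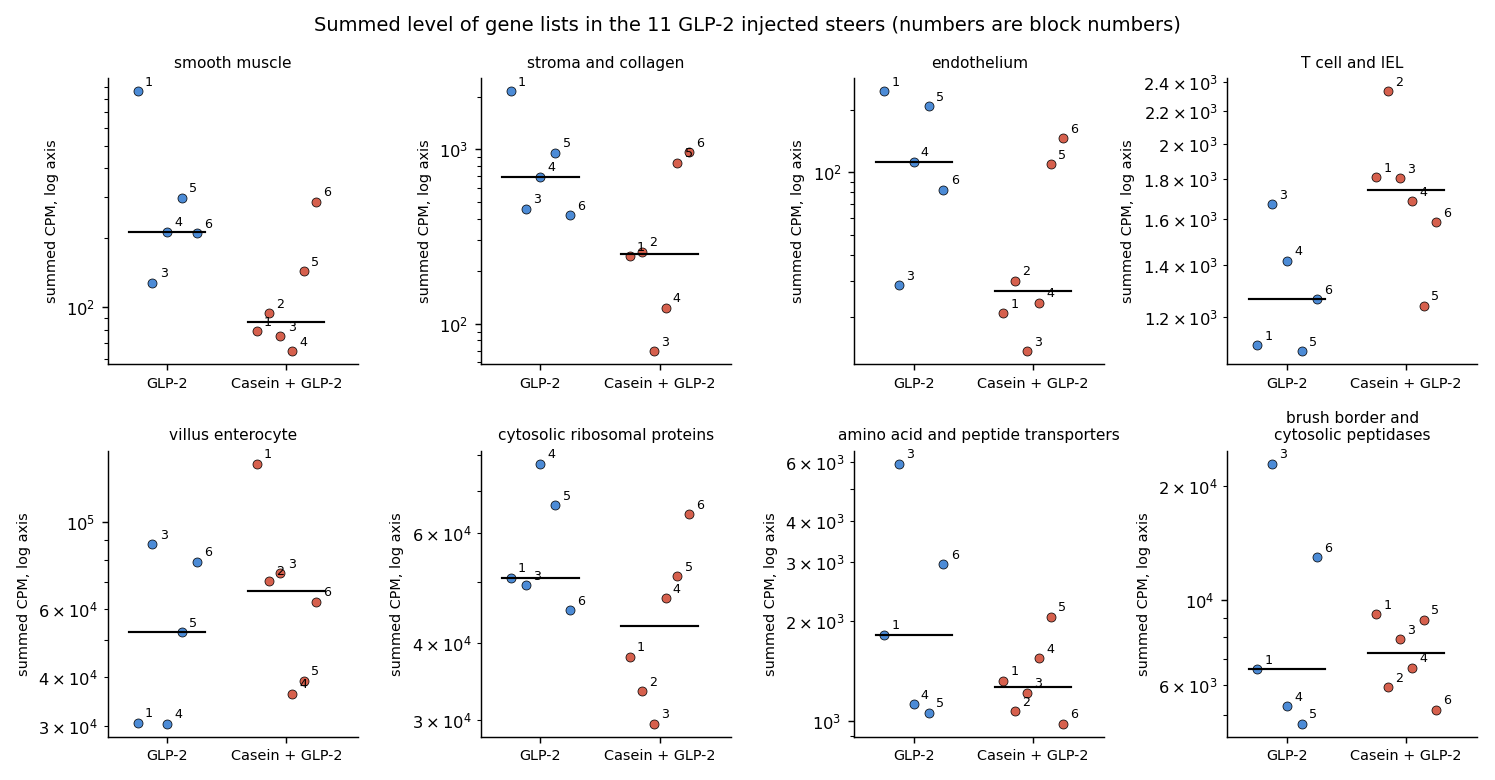
Summed CPM of 8 gene lists in each of the 11 GLP-2 injected steers on log axes; points are steers with their block number beside them and bars are treatment medians. Smooth muscle genes are highest in GLP-2 replicate 1, and both protein digestion lists are highest in GLP-2 replicate 3.

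Crypt and endocrine genes were mostly lower. Of 14 crypt stem cell and Wnt target genes 12 were lower with a median of -0.64, and 4 had an unadjusted p of at most 0.05 (2 with the block). OLFM4, a crypt base marker, was 0.271 to 16.1 CPM with a median of 1.15, against 43.2, 1.83, 62.4, 5.15 and 25.8 CPM (-2.53 ± 1.00, unadjusted p = 0.0247). ASCL2, a stem cell transcription factor, differed by -2.11 ± 0.85 and SMOC2 by -1.77 ± 0.73 (-0.71 without GLP-2 replicate 1), while LGR5 had too few reads to test. Without GLP-2 replicate 1, 0 members had such a p, and without GLP-2 replicate 3 there were 6. The crypt list had 7 higher and 7 lower with the smooth muscle score in the model, a median of -0.06 and 0 such members. All 23 proliferation and DNA replication genes were lower with a median of -0.35 and 0 with an unadjusted p of at most 0.05, led by TYMS (-0.61 ± 0.29), MCM7 (-0.41 ± 0.22) and PCNA (-0.35 ± 0.19). Without GLP-2 replicate 1 the direction was mixed, with 11 higher and 12 lower and a median of -0.04. With the smooth muscle score in the model 20 were higher and 3 lower, with a median of 0.16. MKI67, a marker of dividing cells, differed by -0.07 ± 0.32, and without GLP-2 replicate 3 the list had 4 members with such a p. In vehicle steers the proliferation list had a median of -0.37. All 7 goblet cell genes were lower, from a list median of -0.49, with SPDEF, the goblet cell transcription factor, at -0.58 ± 0.37 (unadjusted p = 0.138), SPINK4 at -0.57 ± 0.40 and ATOH1, which starts the secretory lineage, at -0.49 ± 0.34.

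GCG was 11.1 to 19.4 CPM with a median of 14.2 in casein + GLP-2 steers and 47.3, 26.9, 30.6, 17.6 and 19.9 CPM in GLP-2 steers, with an overlap at the lowest GLP-2 steer (-0.94 ± 0.25, unadjusted p = 0.00250, or 0.00358 with the block). CHGA, chromogranin A of endocrine granules, had a median of 47.5 CPM (25.8 to 77.2) against 136, 61.5, 89.8, 60.1 and 75.0 CPM (-0.82 ± 0.28, unadjusted p = 0.0112). SST differed by -0.45 ± 0.23 (unadjusted p = 0.0763). These were the leading members of 12 enteroendocrine genes, of which 9 were lower. In vehicle steers GCG differed by 0.22 ± 0.44, and the unadjusted interaction p was 0.0349 for GCG and 0.00616 for CHGA.

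The receptor of the injected peptide, GLP2R, was low in all libraries, at 1.56 to 13.6 CPM against 27.8, 6.06, 8.05, 6.45 and 4.25 CPM (-0.69 ± 0.61, unadjusted p = 0.277). Of 17 tested genes for the receptor and its proposed mediators, 8 were higher and 9 lower. AREG, an ERBB ligand, had a median of 5.41 CPM (0.550 to 11.9) against 0.717 to 2.62 CPM (1.70 ± 0.59, unadjusted p = 0.0128). The insulin-like growth factor binding proteins IGFBP4 (-0.58 ± 0.24, unadjusted p = 0.0320) and IGFBP5 (-2.24 ± 1.03, unadjusted p = 0.0493) were lower. IGFBP5 differed by -1.09 without GLP-2 replicate 1.

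Genes that sense or process amino acids inside the cell differed little as groups. Of 24 targets of ATF4, the transcription factor of amino acid shortage, 16 were higher with a median of 0.05. An unadjusted p of at most 0.05 was seen for 4 members (2 to 7 with single steers left out). WARS, tryptophanyl-tRNA synthetase, led them with a median of 825 CPM (515 to 1388) against 531, 541, 576, 465 and 436 CPM (0.78 ± 0.25, unadjusted p = 0.00714). WARS is also known as a target of interferon gamma. ATF3, a stress-induced factor, differed by 0.73 ± 0.23 (unadjusted p = 0.00783) and EIF4EBP1, a translation repressor, by -0.74 ± 0.30 (unadjusted p = 0.0272), while ATF4 itself differed by 0.01 ± 0.17. The 23 genes of mTORC1 and lysosomal amino acid sensing had a median of -0.01 with 11 higher, and the members with the smallest p were SESN1 (0.49 ± 0.18), LAMTOR4 (-0.43 ± 0.19) and TSC1 (0.42 ± 0.20). MTOR differed by 0.22 ± 0.17. The 26 amino acid catabolism, urea cycle and polyamine genes had a median of -0.03, with ASS1, which makes argininosuccinate, at 0.93 ± 0.38 (unadjusted p = 0.0282, or 0.141 with the block) and the transaminase GPT at -0.69 ± 0.30 (unadjusted p = 0.0373, and -0.40 without GLP-2 replicate 3). DBT, of branched-chain keto acid breakdown, differed by 0.53 ± 0.30. CPS1, which feeds the urea cycle, differed by -0.30 ± 0.23.

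Cytosolic ribosomal protein genes were lower as a group by small amounts. Of 78 genes tested, 77 were lower and 1 higher, with a median of -0.41 against 0.01 for all genes. An unadjusted p of at most 0.05 was seen for 6 of the 78 (2 with the block), against 3.96% lower at such a p over all tested genes. The 73 symbols of this list matched 84 gene identifiers, since some symbols belong to several loci, whose reads may be shared. Summed over these 84 loci, the level was 29619 to 64273 CPM in casein + GLP-2 steers. In GLP-2 steers it was 45065 to 77446 CPM, so the groups overlapped. ENSBTAG00000022275, the less abundant of 2 loci with the symbol RPL10 (a large subunit protein), was 9.69 to 20.5 CPM with a median of 18.5 against 23.4, 22.9, 34.0, 26.2 and 19.9 CPM (-0.61 ± 0.21, unadjusted p = 0.0121). The more abundant RPL10 locus, ENSBTAG00000007454, differed by -0.39 ± 0.23 (unadjusted p = 0.116). RPL19 differed by -0.66 ± 0.26 and RPL10A by -0.49 ± 0.20. The number with such a p was 50 without casein + GLP-2 replicate 6 and 1 without casein + GLP-2 replicate 2, GLP-2 replicate 4 or GLP-2 replicate 5. Of 41 nuclear genes of oxidative phosphorylation, 39 were lower with a median of -0.23, and NDUFA2 of complex I (-0.60 ± 0.21, unadjusted p = 0.0124) and ATP5MC1 of the ATP synthase (-0.54 ± 0.19, unadjusted p = 0.0142) were the members with the smallest p, followed by NDUFA8 (-0.33 ± 0.18). At an unadjusted p of at most 0.05 that list had 2 members, both lower, and 1 with the block. Over all tested genes 3.96% were lower at such a p. With single steers left out the number was 2 to 17, and 17 only without GLP-2 replicate 1. In vehicle steers the ribosomal median was -0.17, and the oxidative phosphorylation median was 0.11.

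Among the remaining lists, 23 genes of cholesterol synthesis and uptake had a median of 0.00. CYP51A1, which demethylates lanosterol, was higher at 161 to 469 CPM with a median of 426, against 137, 164, 161, 314 and 157 CPM (1.01 ± 0.30, unadjusted p = 0.00482). MVD, of the mevalonate pathway, was lower at 14.8 to 26.1 CPM against 32.4, 25.7, 38.9, 39.5 and 24.6 CPM (-0.68 ± 0.19, unadjusted p = 0.00334), and INSIG1, which holds back sterol synthesis, differed by 0.53 ± 0.24. Of 17 circadian clock genes 8 were higher with a median of -0.03, and the nuclear receptor RORA differed by 0.74 ± 0.31 (unadjusted p = 0.0316), BHLHE40 by 0.39 ± 0.21 and ARNTL by 0.30 ± 0.18. Of 23 immediate early and heat shock genes 12 were higher with a median of 0.01, with KLF6 at 0.38 ± 0.13 (unadjusted p = 0.0126) and the heat shock cochaperone DNAJB1 at -0.36 ± 0.14 (unadjusted p = 0.0208). The immediate early gene FOS had a median of 52.7 CPM (32.3 to 102) against 19.3 to 43.2 CPM (0.90 ± 0.33, unadjusted p = 0.0169). Of 11 B cell follicle genes 7 were higher with a median of 0.14, and their summed level was below 100 CPM in all 11 steers. Without casein + GLP-2 replicate 5, 3 were higher and the median was -0.28. BLK, a B cell kinase, differed by 0.41 ± 0.24. CR2, of follicular dendritic and B cells, was 1.00 to 6.02 CPM in casein + GLP-2 and 0.806 to 1.87 CPM in GLP-2 steers, whereas control steers ranged from 0.882 to 277 CPM.

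Markers of other cells in the scraping were counted in the same way. Of 8 plasma cell genes 7 were lower with a median of -0.60. That median was -0.10 without GLP-2 replicate 1 and 0.33 with the smooth muscle score in the model. MZB1, of antibody-secreting cells, differed by -1.43 ± 0.65 (unadjusted p = 0.0473), DERL3 by -0.73 ± 0.46 and IRF4 by -0.48 ± 0.35. The 10 macrophage and dendritic cell genes had 5 on each side, with FLT3 at -0.54 ± 0.31, AIF1 at -0.49 ± 0.33 and CD163 at -0.38 ± 0.38. The 6 mast cell and eosinophil genes had 3 on each side, with CCR3 at -0.82 ± 0.54, KIT at 0.24 ± 0.18 and MS4A2 at 0.57 ± 0.45. All 4 tuft and Paneth-like cell genes were lower with a median of -0.84, among them MMP7 (-1.39 ± 0.56, unadjusted p = 0.0277), AVIL (-1.13 ± 0.55) and ALOX5 (-0.56 ± 0.31). Both tested genes of enteric neurons and glia were lower, S100B by -1.53 ± 0.68 (unadjusted p = 0.0419) and UCHL1 by -0.04 ± 0.62. Of 5 ileal enterocyte genes 4 were higher with a median of 0.36 (-0.03 without casein + GLP-2 replicate 5), with the hormone FGF19 at 1.67 ± 0.81 (unadjusted p = 0.0613), CUBN at 0.44 ± 0.49 and FABP6 at 0.36 ± 0.86. The 2 duodenal genes tested were PDX1 at 0.43 ± 0.36 and TFF2 at -0.44 ± 1.08.

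**Figure D5:**
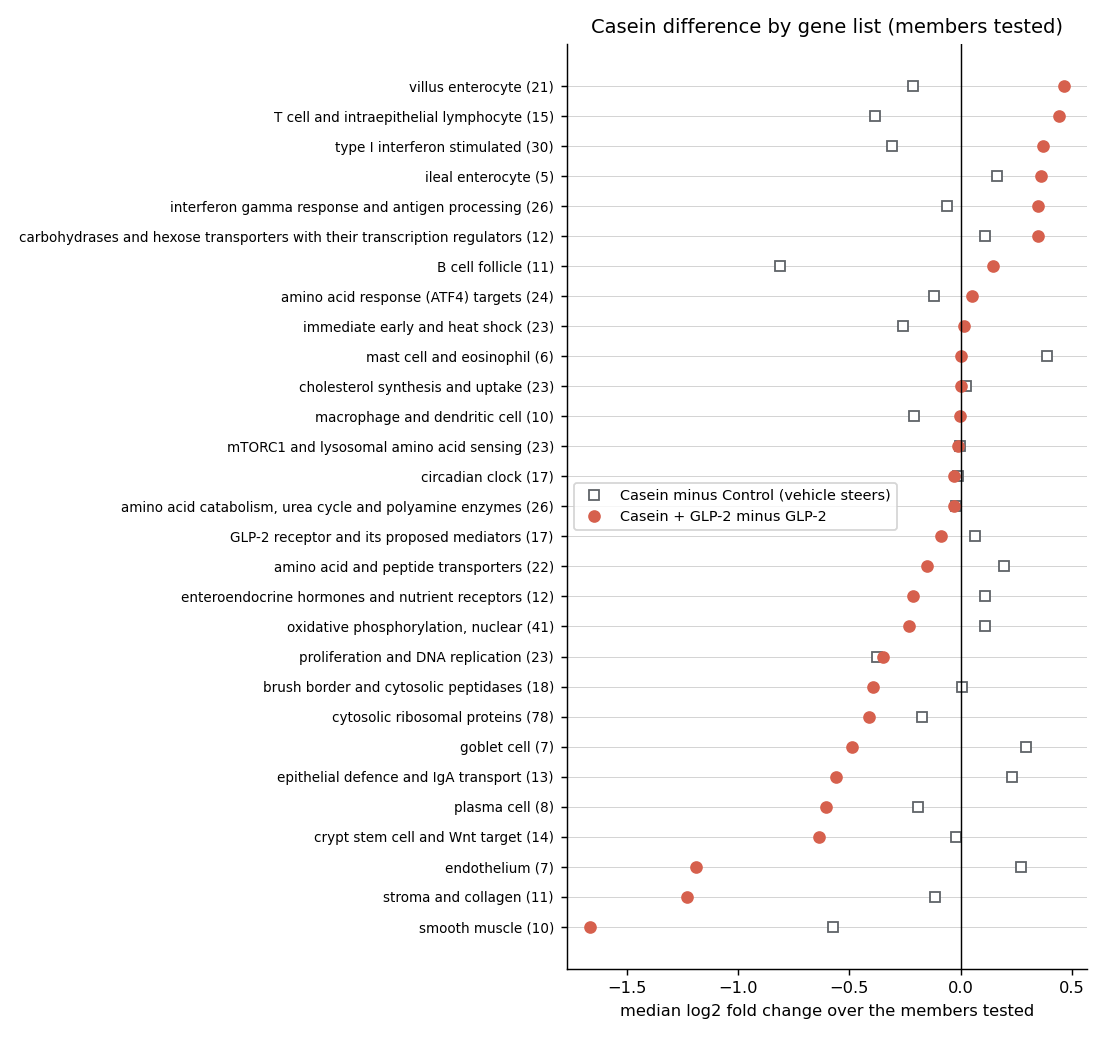
Median log2 fold change of the tested members (number in brackets) of 29 gene lists with at least 5 tested members, for casein + GLP-2 against GLP-2 (filled circles) and for casein against control in vehicle steers (open squares). Villus enterocyte and T cell lists are highest and smooth muscle, stroma and endothelium lowest in GLP-2 steers, with open squares on the other side of 0 or nearer to it for these 5 lists.

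The fold changes were set beside those of casein against control in vehicle steers. In that comparison 379 of 14285 genes (2.65%) were at an unadjusted p of 0.05 or less and 0 passed adjustment in edgeR. Across the 13796 genes tested in both, which are not independent replicates, the fold changes had a Pearson r of -0.10 and a Spearman rho of -0.01, and 51.7% had the same sign. For the interaction, 645 of 15086 genes (4.28%) were at an unadjusted p of 0.05 or less, and 0 passed adjustment in edgeR, against 2 in DESeq2. Vehicle steers varied more, with a biological coefficient of variation of 0.558 against 0.373 in the GLP-2 injected steers, so that the interaction had less precision than the comparison within GLP-2 steers.

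The study names genes that were lower with casein over all steers, and those were looked up. SFRP5, a secreted Wnt antagonist, had a median of 0.459 CPM in casein + GLP-2 steers and was 1.27, 1.02, 0.956, 1.31 and 0.366 CPM in GLP-2 steers (-0.76 ± 0.79, unadjusted p = 0.355). CCR7, the receptor that guides lymphocytes to lymphoid tissue, was 0.678 to 3.66 CPM against 3.30, 2.04, 4.90, 4.96 and 1.54 CPM (-0.40 ± 0.44, unadjusted p = 0.384). Control steers reached 136 CPM for SFRP5 and 62.8 CPM for CCR7. FCER2, C1QTNF2, ENSBTAG00000040367 and ENSBTAG00000047783 had too few reads in the 11 GLP-2 injected steers to be tested. ENSBTAG00000047783 failed the filter in the fit of all 11 steers. Without GLP-2 replicate 4 it entered the test and was called lower with casein, at -5.00 (adjusted p = 0.00606 in edgeR). The study named it from all steers, which include the present ones, so that this call is not independent evidence.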

How the data were processed

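Messenger RNA of scraped jejunal mucosa from 22 steers had been sequenced from strand-specific, poly-A selected libraries. According to the submitters' processing notes the tools were HISAT2 (2.0.5), StringTie (1.3.3b), featureCounts (1.5.0-p3) and DESeq2 (1.20) with ARS-UCD1.2. The authors deposited raw counts per gene, whole numbers without normalization, for 27570 genes, of which 20327 had a symbol. The FPKM values that the authors also deposited were not used. The study gives RNA integrity over its samples as a wide range, and it left a control steer out for low integrity. Values per steer are not given in the sources used here, so the part of RNA integrity in the differences was not tested.

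From the counts, edgeR 4.0.16 in R 4.3.3 compared 6 casein + GLP-2 with 5 GLP-2 steers (filterByExpr with a minimum count of 10, TMM normalization, quasi-likelihood test, Benjamini-Hochberg adjustment, threshold 0.05, tendency to 0.1). Only these steers entered, because vehicle steers varied more and because an earlier model of all 22 steers had given fewer small p-values for this contrast than an even spread of p-values gives. The choice was therefore made with p-values of these data known. Casein against control was fitted likewise in the 11 vehicle steers, and the interaction with 4 treatments in 22 steers. Log2 CPM used a prior count of 2. CPM values of GLP-2 injected steers used the scaling of their own fit, and those of vehicle steers used TMM factors of all 22 steers. The p-values measure the spread between steers, and depth differed between libraries, so low genes are less precise. The floor of 3 counts covers counting error only.

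Named were genes passing the threshold in edgeR or DESeq2, the first 12 genes by p in each direction, the 3 members of each list with the smallest p, members without overlap, the gene that gives a list its name, and genes the study names. A few others are named to show a range, and the results of 2 genes are not reported here. The members and gene lists were chosen with earlier results of these data known. No set test was made. The procedure was tested on simulated data.

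Replicate numbers are body weight blocks by the labels. After treatment means were removed, the 5 pairs of steers from the same block had a mean correlation of 0.04 (-0.34 to 0.29) and the 25 other pairs -0.01. Alternatives were the block, 2 other normalizations, 2 other filters, all 22 steers, covariates (body weight, B cell follicle, smooth muscle, and, added later, T cell and villus scores), a robust spread, DESeq2 1.42.0, limma 3.58.1 with voom, and leaving out each steer.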

Additional observations from a re-analysis of the deposited data

Results flagged for a closer look

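A single value stood apart from its group among 48 groups of values examined by Dixon's test, which flags about 1 in 20 groups by chance. ENSBTAG00000020550 was 4.00 CPM in casein + GLP-2 replicate 3, where the other 5 steers of the treatment had 6.91 to 9.23 CPM, and the gap was 0.651 of the range. No gene had all steers of one comparison on opposite sides to the other.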

How the results depend on the processing

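The count of 1 called gene was 0 with at least 10 counts required in every steer, a filter that removes ENSBTAG00000054260, 0 with all 22 steers in the model and 11 in DESeq2, and 1 to 2 when a steer was left out. The second gene was GBP2 without casein + GLP-2 replicate 6. Without GLP-2 replicate 4 it was ENSBTAG00000047783, which the filter removes in the main fit. The 1011 genes at an unadjusted p of at most 0.05 became 1528 without a filter, 398 with all 22 steers, 532 with the replicate block, 2169 with the B cell follicle score, 514 with the smooth muscle score and 273 with the T cell score, and the cause was not tested. Leaving out a steer gave 530 to 1527, with 530 and 587 without casein + GLP-2 replicates 2 and 3, and 1527 and 1523 without replicates 5 and 6. The 60 genes whose groups did not overlap were 68 to 214 with a steer left out, where fewer steers make separation easier. The interaction call count of 0 was 2 in DESeq2. In the replicate block fit 1 gene was called, the same as without it, and no other call changed.

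Of 2033 gene values under alternatives, 2015 kept direction and side of the threshold. The 6 reversals were MYO7B (-0.22), MCM7 (0.043), SMOC2 (0.19) and ARNTL (-0.056) with the smooth muscle score, and MYO7B (-0.025) and SMOC2 (0.0066) with the T cell score. Higher genes made up 44.7% of the unadjusted calls, 47.3% with DESeq2's size factors and 38.7% with upper quartile scaling. The smallest library, of 8809666 counts, is the least precise for low genes.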
